A study of Mus musculus with 20 samples.

Results

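The T cell receptor complex was followed in bulk RNA-seq of mouse tumors through 10 genes, Trac, Trbc1, Trbc2, Cd3d, Cd3e, Cd3g, Cd247, Lck, Zap70 and Lat, chosen by symbol. All 10 were found among the 54309 genes of the count table, and all 10 passed the low-count filter that left 19567 genes for testing. The tumors grew subcutaneously from SCCVII, a mouse squamous carcinoma line, in immunocompetent C3H/HeOuJ mice, and their RNA was sequenced in 10 groups of 2 libraries, A and B. 1 group served as control and was given no active agent. Of the single agents, APG-157 is a botanical drug that contains curcumin and was mixed into the chow, while anti-PD-1 and anti-CTLA-4 are antibodies against checkpoint receptors of T cells, injected into the peritoneum. Combinations of these agents are named here as the PD-1 combination (APG-157 given with anti-PD-1), the CTLA-4 combination (APG-157 given with anti-CTLA-4), dual blockade (the 2 antibodies without APG-157) and the triple combination (all 3 agents). The antibody anti-CD8, which removes CD8+ T cells, was given alone or on top of the agents of the CTLA-4 combination, the latter here called the CD8-depleted combination. The study describes CD8 depletion as a separate experiment with its own control and its own CTLA-4 combination. Which experiment the control and CTLA-4 combination libraries came from is not given. Depleted and undepleted groups may therefore differ by experiment as well as by depletion. The age of the mice, the day of harvest for sequencing, and whether A and B were separate tumors are not given in the sources used here, so every p-value measures only the spread between these libraries, which may be technical.

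The total count of a library lay between 43.9 and 72.1 times 1e6 (median 54.9 times 1e6). Levels are given as CPM, counts per 1e6 after TMM scaling, which adjusts for differences in library composition. CPM is not divided by transcript length, so levels were compared between libraries and not between genes. The RNA is of whole tumor, in which fewer T cells and less RNA per T cell cannot be told apart. The labels name the samples as head and neck cancer cells. Of a list of 8 squamous and epithelial genes, Krt5 was at 0 in 16 of the 20 libraries, Krt6a in 15, Krt17 in 12 and Krt14 in 4. Krt16 and Trp63 were each at 0 in 1 library. Epcam and Cdh1 were above 0 in all, with lowest levels of 0.0867 and 2.30 CPM. The 8 genes of that epithelial list summed to between 3.36 and 442 CPM. The 8 macrophage markers summed to between 1658 and 4618 CPM, and these sums are not compared with each other. The CTLA-4 combination libraries A and B were unusually close to each other, with a biological coefficient of variation of 4.24% against 20.8% to 68.1% in the other groups. Their counts differed by more than counting noise (chi-square of 10.3 per gene), which preparations of a single tumor could also do, and the study mentions a single small tumor of this group for other assays. They were kept as 2 libraries as labelled, and summing them to 1 sample left 0 members called by edgeR in every comparison it entered. Library B of the CD8-depleted combination stood apart with 16805 counts of the adipocyte gene Adipoq, where the other 19 libraries had at most 170.0.

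The alpha-beta T cell receptor recognises antigen through variable domains and is held in the membrane by constant domains, encoded by Trac for the alpha chain and by Trbc1 or Trbc2 for the beta chain. It has no signalling tail of its own and depends on CD3 delta, epsilon and gamma (Cd3d, Cd3e, Cd3g) and on the zeta chain (Cd247), whose tails carry tyrosine motifs. The kinase Lck phosphorylates these motifs, ZAP-70 (Zap70) docks on them, and LAT, the adaptor that ZAP-70 phosphorylates, gathers the enzymes of the next steps. In a tumor these genes are read as markers of infiltrating T cells, although natural killer cells also use the zeta chain, Lck, ZAP-70 and LAT.

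In the mouse reference GRCm38.p6 the members lie on 6 chromosomes. Trac (ENSMUSG00000076928.6) is at chr14:54220521-54224198. Trbc1 (ENSMUSG00000076490.7) at chr6:41538219-41539665 and Trbc2 (ENSMUSG00000076498.3) at chr6:41546730-41548181 stand next to each other. Cd3g (ENSMUSG00000002033.15) at chr9:44969572-44980431, Cd3d (ENSMUSG00000032094.9) at chr9:44981769-44987052 and Cd3e (ENSMUSG00000032093.8) at chr9:44998735-45009663 form a cluster. Cd247 (ENSMUSG00000005763.16) is at chr1:165779952-165871153, Zap70 (ENSMUSG00000026117.11) at chr1:36761798-36782821, Lck (ENSMUSG00000000409.15) at chr4:129548344-129573641, and Lat (ENSMUSG00000030742.8) at chr7:126363827-126369705. The authors counted on the later build GRCm39, so these positions serve only to place the genes.

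The sequences of the beta constant genes are shown because they bear on how far their counts can be told apart. Over the 518 coding bases of the longest GENCODE vM21 transcript of each gene, Trbc1 and Trbc2 differed at 23 bases, an identity of 95.6%. The first exon, which encodes the constant immunoglobulin domain in 375 bases, differed by a single substitution, C260A, counted from the first coding base, with the Trbc1 base first. The third coding exon, of 107 bases, held 15 of the differences. It is printed here 5′ to 3′ on the plus strand of GRCm38, with the bases that differ in capitals, for Trbc1 at chr6:41539229-41539335 and for Trbc2 at chr6:41547772-41547878.
Trbc1: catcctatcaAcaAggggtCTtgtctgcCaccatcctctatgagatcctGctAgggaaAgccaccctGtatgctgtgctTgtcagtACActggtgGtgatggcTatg
Trbc2: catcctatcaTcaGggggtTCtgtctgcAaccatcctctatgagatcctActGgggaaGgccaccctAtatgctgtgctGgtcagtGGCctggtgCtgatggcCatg
Of all stretches of 31 bases in the transcripts, which run past the coding part, 45.4% of those of Trbc1 and 48.5% of those of Trbc2 also occurred in the other gene. Reads from these stretches are shared out by the authors' estimation, so the split between Trbc1 and Trbc2 is uncertain while their sum is less so.

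Levels of all the genes but Trbc2 spanned more than an order of magnitude between libraries, and the highest level of these 9 was in dual blockade library B. Cd3e, the CD3 chain most used to mark T cells, measured 4.61 and 7.90 CPM in control libraries A and B, 1.41 and 1.05 with APG-157, 6.81 and 10.2 under anti-PD-1, and 31.8 and 1.01 under anti-CTLA-4. In the combinations it measured 20.1 and 6.03 CPM with the PD-1 combination, 7.72 and 8.04 with the CTLA-4 combination, 29.8 and 48.4 with dual blockade, and 35.2 and 3.54 with the triple combination. With anti-CD8 it measured 1.01 and 1.40 CPM, and with the CD8-depleted combination 3.87 and 3.64. Both libraries of dual blockade were above both controls, both libraries of APG-157 and of anti-CD8 were below them, and anti-CTLA-4 had a library on each side.

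Trac, the alpha chain constant gene, followed nearly the same course. It measured 5.39 and 6.42 CPM in control, 1.43 and 1.38 with APG-157, 4.94 and 12.2 under anti-PD-1, 24.4 and 1.25 under anti-CTLA-4, and 18.3 and 6.17 with the PD-1 combination. It measured 6.39 and 8.46 CPM with the CTLA-4 combination, 36.2 and 37.1 with dual blockade, and 30.3 and 4.23 with the triple combination. It measured 1.58 and 1.76 CPM with anti-CD8, and 5.19 and 4.86 with the CD8-depleted combination. In the order of mean Trac levels, dual blockade stood first at 36.6 ± 0.661 CPM (SD, n = 2) and APG-157 last at 1.41 ± 0.0333 CPM (SD, n = 2). In 4 of the 9 steps between neighbours in this order the libraries did not overlap, against 2 of 9 for Cd3e and 1 of 9 for Trbc2. Each order was made from these same levels, and no share over all genes was taken. The counts therefore describe the order and are not a result about these genes.

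**Figure D1:**
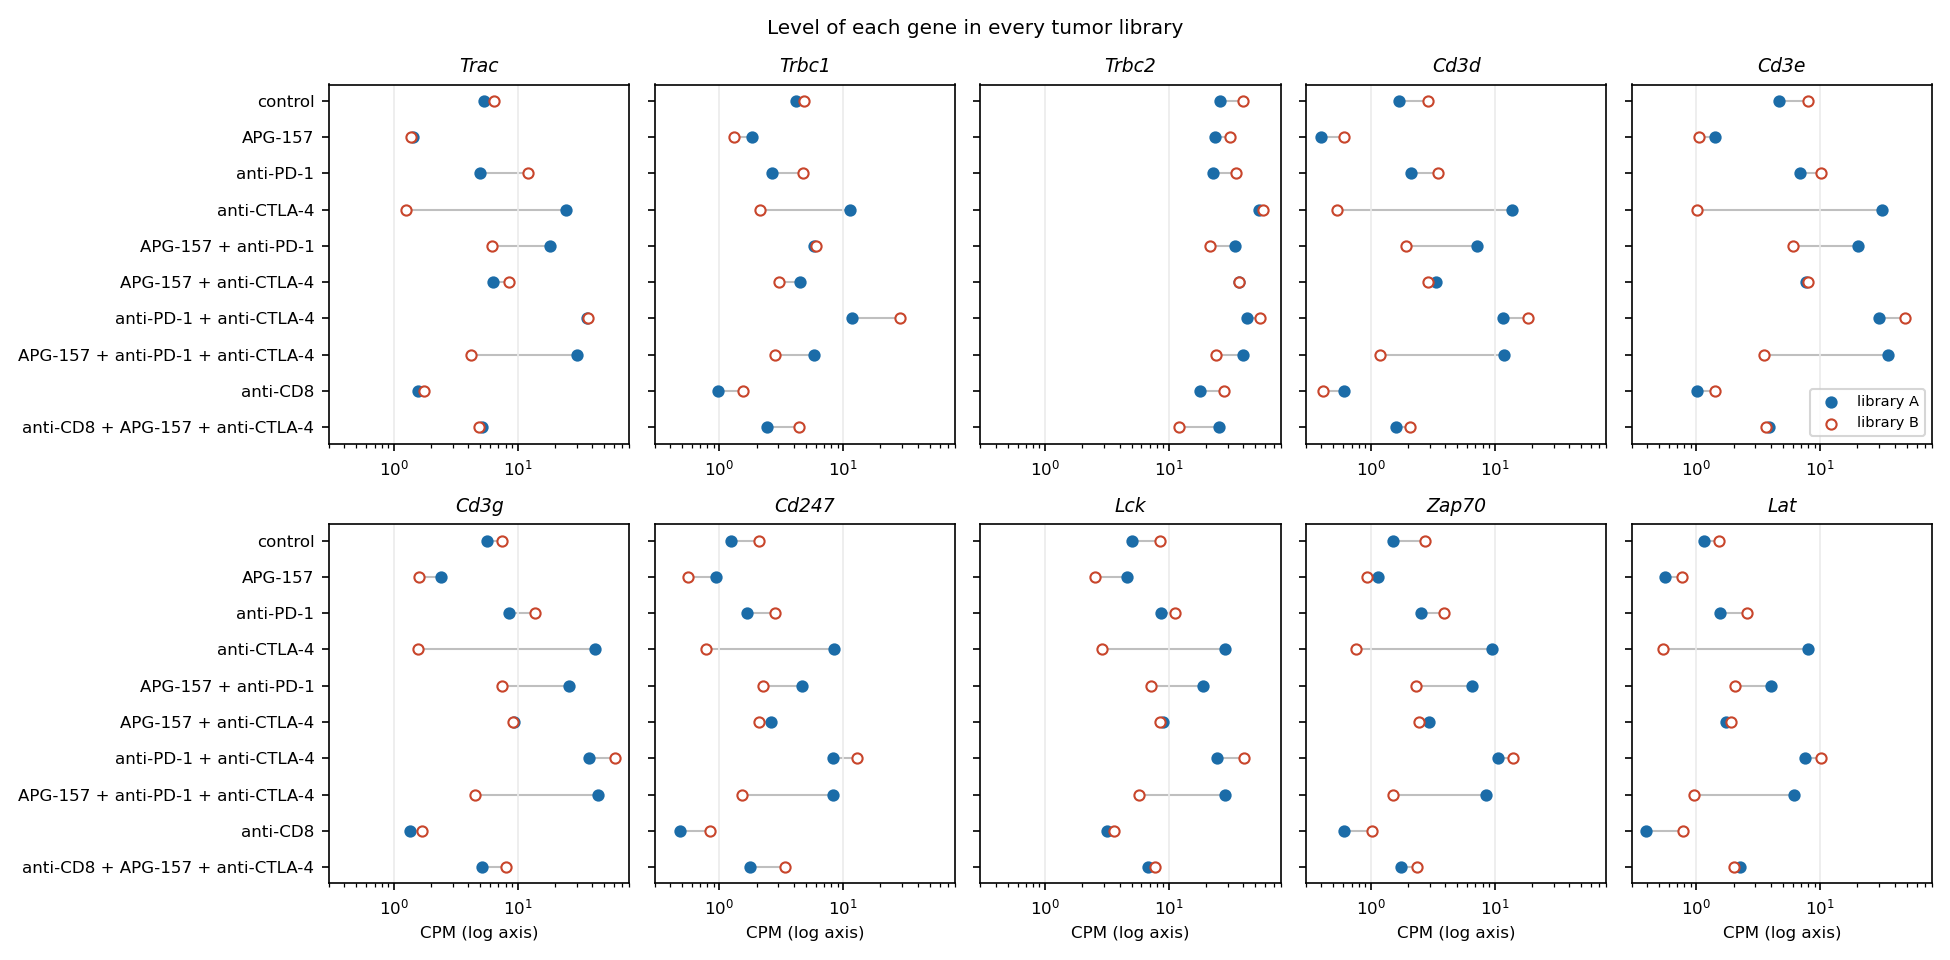
CPM on a log axis (x) of the 10 genes in the 10 groups (y), with library A as a filled point, library B as an open point, and a grey line joining the pair. In 9 panels the dual blockade pair sits at the high end and the APG-157 and anti-CD8 pairs at the low end, while Trbc2 stays between 12.2 and 58.1 CPM throughout.

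The remaining genes had wide ranges too. Cd3g ran from 1.35 to 61.1 CPM, a 45.4-fold range, Cd3d from 0.399 to 18.7 CPM, a 46.8-fold range, and Cd247 from 0.485 to 12.9 CPM, a 26.6-fold range. Zap70 ran from 0.610 to 14.1 CPM, a 23.1-fold range, Lat from 0.395 to 10.1 CPM, a 25.7-fold range, and Lck from 2.55 to 40.7 CPM, a 16.0-fold range. The lowest values of Cd3d and Lat rested on 22.0 counts each, so counting error is large there. Trbc2 had by far the narrowest range, 4.77-fold.

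The genes moved together from library to library. On the scale of log2(CPM + 0.1) over the 20 libraries, Pearson's r of each gene with the mean of the other 9 lay between 0.976 and 0.992 for 8 genes, was 0.918 for Trbc1, and was 0.479 for Trbc2. Among the 28 pairs that leave out both beta constant genes, r ran from 0.958 to 0.991. These are descriptions, with no test, and the points share their libraries, their depth and the group differences.

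Part of this shared variation was between libraries of the same group. Within anti-CTLA-4, library A exceeded library B 31.6-fold for Cd3e, 26.6-fold for Cd3g, 19.6-fold for Trac and 9.78-fold for Lck. Within the triple combination, library A exceeded library B 9.93-fold for Cd3e, 7.16-fold for Trac and 4.92-fold for Lck. In the CTLA-4 combination the pair differed by only 1.04-fold for Cd3e and 1.33-fold for Trac. Over the 10 groups, the A minus B difference of Cd3e had r = 0.995 with the mean difference of the other 9 genes, and that of Trbc2 had r = 0.374.

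Genes of other cells moved in part with the members, and their part in the results was not tested. With the lower library of each pair first, the 8 markers of the natural killer list summed to 18.7 and 30.2 CPM in control, 11.9 and 24.9 with APG-157, 11.1 and 15.4 with anti-CD8, 17.0 and 109 under anti-CTLA-4, and 96.8 and 154 with dual blockade. T cells also express several of these markers, such as Klrk1 and Nkg7, whose r with the mean of the members was 0.926 and 0.965. The mean log2 level of the list had r = 0.932 with the members. By gene, r was 0.963 for Klrd1, 0.909 for Klre1, 0.757 for Eomes, 0.705 for Klrb1c and 0.476 for Ncr1, and Klra8 was at 0 in 16 libraries. Skeletal muscle markers did not follow the members across libraries (r of the mean log2 level 0.122), although Acta1 ran from 18.0 to 80228 counts. The B cell list summed to at most 10.9 CPM in any library. In the lymph node list Madcam1 was at 0 in 16 libraries, Glycam1 in 13 and Ccl21a in 10, and the list's mean log2 level had r = 0.215 with the members. The list's sum stood apart in APG-157 library B, at 61.2 CPM against 1.01 in library A, and in the CD8-depleted library B, at 65.5 CPM, while the other 18 libraries had at most 11.5 CPM. These high sums rest on Ccl21a, Cxcl13 or both, which each reached 60.6 CPM. No other gene of the list exceeded 0.526 CPM in any library.

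Trbc2, the second beta constant gene, departed from the other members. It measured 25.8 and 39.9 CPM in control, 23.7 and 31.1 with APG-157, 22.8 and 34.9 under anti-PD-1, 53.4 and 58.1 under anti-CTLA-4, and 34.4 and 21.5 with the PD-1 combination. It measured 37.0 and 36.7 CPM with the CTLA-4 combination, 42.9 and 54.8 with dual blockade, and 39.5 and 23.9 with the triple combination. It measured 17.9 and 28.0 CPM with anti-CD8, and 25.2 and 12.2 with the CD8-depleted combination. The highest Trbc2 level of all, 58.1 CPM or 3350 counts, was in anti-CTLA-4 library B, where Trac had its lowest level, 1.25 CPM or 72.0 counts.

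Trbc1 was closer to the rest. It measured 4.19 and 4.83 CPM in control, 1.83 and 1.32 with APG-157, 2.65 and 4.77 under anti-PD-1, 11.2 and 2.11 under anti-CTLA-4, 5.83 and 6.01 with the PD-1 combination, and 4.45 and 3.02 with the CTLA-4 combination. It measured 11.8 and 28.5 CPM with dual blockade, 5.83 and 2.81 with the triple combination, 0.969 and 1.54 with anti-CD8, and 2.40 and 4.40 with the CD8-depleted combination. Its levels were highest in both dual blockade libraries, and lowest with anti-CD8 and APG-157.

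**Figure D2:**
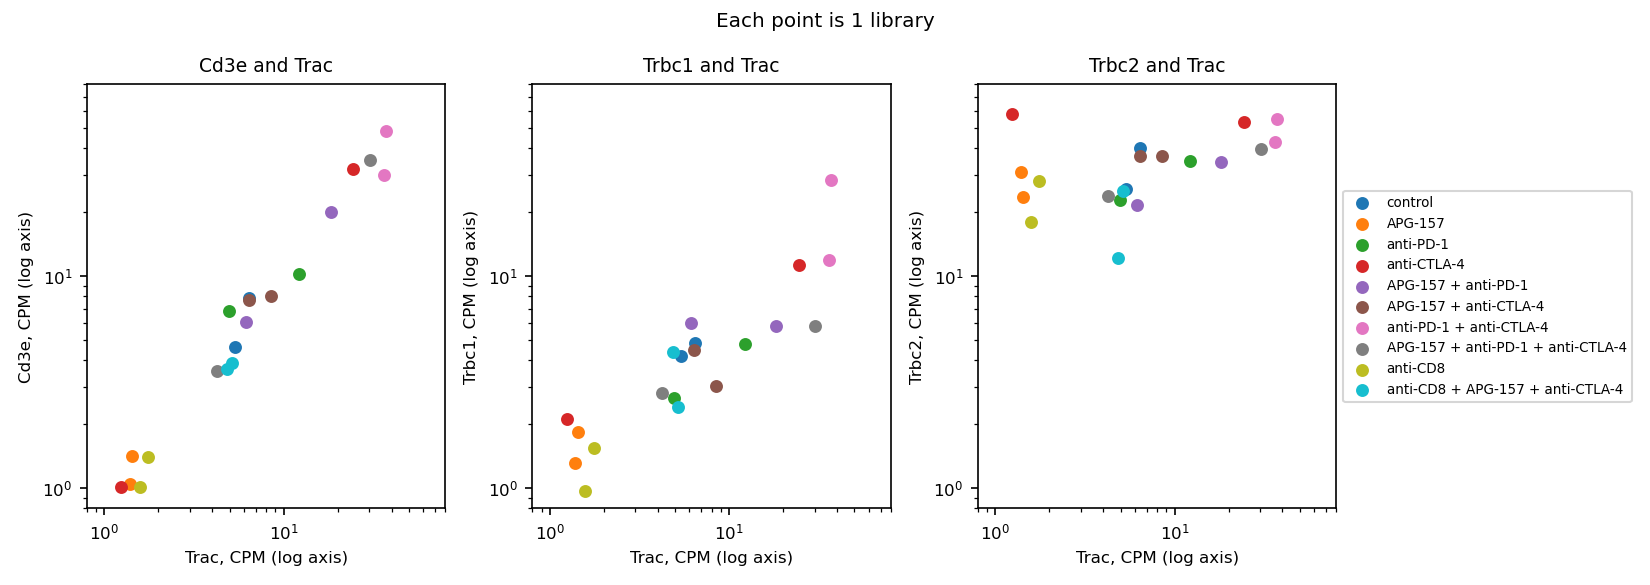
CPM of Cd3e, Trbc1 and Trbc2 (y, log axes) against CPM of Trac (x, log axes), 1 point per library coloured by group. Cd3e lies along a line with Trac, whereas Trbc2 stays between 12.2 and 58.1 CPM over the whole Trac range of 1.25 to 37.1 CPM.

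Since alpha and beta chains pair in the same receptor, the ratio of Trbc2 to Trac CPM was taken in each library. It was 4.80 and 6.22 in control, 16.5 and 22.4 with APG-157, 4.61 and 2.85 under anti-PD-1, 2.19 and 46.5 under anti-CTLA-4, 1.88 and 3.49 with the PD-1 combination, and 5.79 and 4.33 with the CTLA-4 combination. It was 1.18 and 1.48 with dual blockade, 1.30 and 5.66 with the triple combination, 11.4 and 15.9 with anti-CD8, and 4.85 and 2.51 with the CD8-depleted combination. The ratio was thus high where Trac was low, a 39.3-fold range, whereas Trac to Cd3e spanned 2.17-fold.

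Whether an agent moved the Trbc2 and Trac counts apart was tested over the 16 libraries without anti-CD8, 8 given each agent and 8 not, with a two-sided exact permutation test that shuffled libraries within each combination of the other agents; this test was chosen after the counts were seen. With anti-PD-1 the log2 ratio of Trbc2 to Trac averaged 1.27 against 3.09 without it, a difference of -1.83 (exact permutation p = 0.00463, 0.0278 after adjustment over the 6 ratios tested; the smallest possible p was 0.00154). The adjustment does not cover the choice of Trbc2, which was picked because it departed from the other members in these data. In the anti-PD-1 main effect given below Trbc2 hardly moved, so the test mainly restates the difference in Trac. The difference in this ratio was 0.34 for APG-157 (exact p = 0.625, adjusted 0.75) and -0.61 for anti-CTLA-4 (exact p = 0.375, adjusted 0.574). For the ratio of Trbc1 to Trac no difference passed, with -0.76 for anti-PD-1 (exact p = 0.0694, adjusted 0.208), -0.12 for APG-157 (exact p = 0.761, adjusted 0.761) and -0.36 for anti-CTLA-4 (exact p = 0.383, adjusted 0.574).

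The genes most like Trbc2 over the 20 libraries included none of the other members. By Pearson's r of log2(CPM + 0.1) among 19467 genes the first were Atp6v0c, a subunit of the vacuolar proton pump (r = 0.934), Nfkbib, an inhibitor of NF-kappa B (0.885), and Tspan4, a tetraspanin (0.874), and those that followed included Tpst2, Tor1a, Aup1, Fxyd5, Ctsz and Zbtb3, the last at 0.843. Among 19476 genes the other members ranked between 1341 for Cd3d and 2121 for Cd247 in likeness to Trbc2. The mean log2 level of the macrophage list had r = 0.653 with Trbc2 and 0.432 with the mean of the members, and its part in the level of Trbc2 was not tested. These lists were looked up after the values of Trbc2 were seen. The diversity and joining segments of the beta locus gave almost no counts, with Trbj2-3 highest at 16.0 counts over all 20 libraries.

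The share of Trbc1 in the summed counts of Trbc1 and Trbc2 followed from these levels. It was 14.0% (95% Wilson interval 12.4% to 15.7%) and 10.8% (9.59% to 12.1%) in control, and 7.19% (5.94% to 8.65%) and 4.06% (3.27% to 5.05%) with APG-157. With dual blockade it was 21.6% and 34.2% (32.9% to 35.5%), both above the controls. It was lowest in anti-CTLA-4 library B, 3.52% (2.95% to 4.18%), and 17.4% (16.1% to 18.7%) in library A of that group. With anti-CD8 it was 5.17% (3.95% to 6.63%) and 5.22% (4.36% to 6.24%), and with the CD8-depleted combination 8.71% (7.53% to 10.1%) and 26.5% (23.6% to 29.7%). The intervals cover counting error only, not the estimation that splits shared reads. The pairs of most groups differed by more than their intervals, so the share varied within groups as well as between them.

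**Figure D3:**
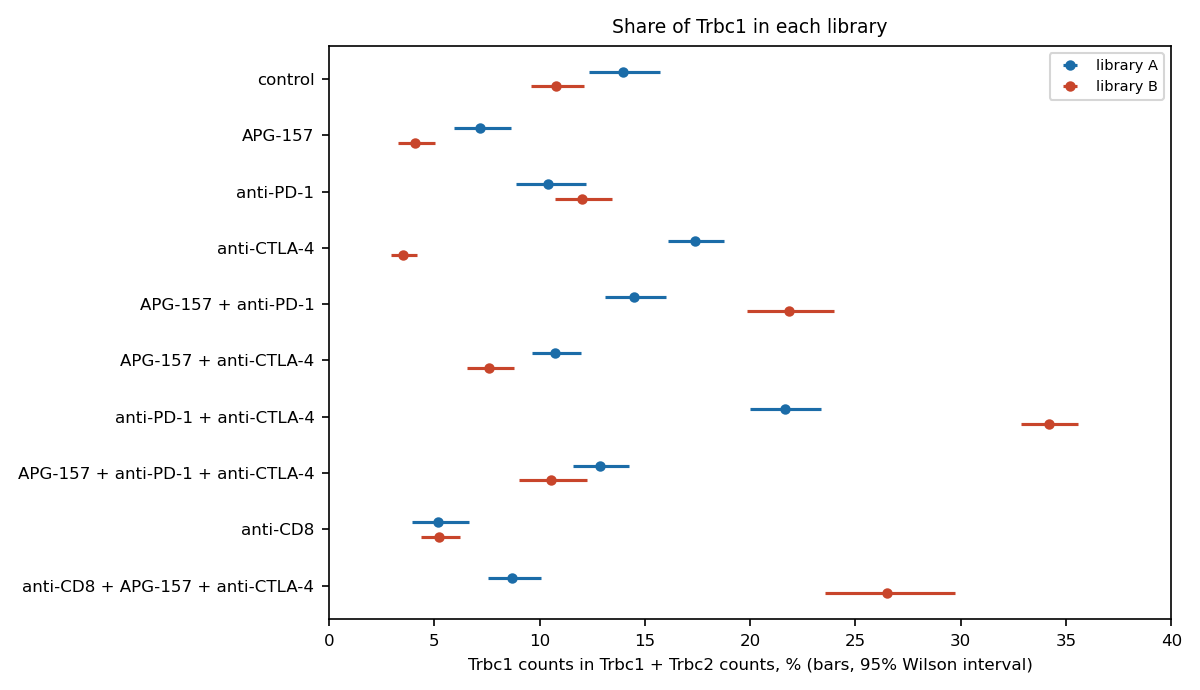
Share of Trbc1 in the counts of Trbc1 and Trbc2 (x, percent) for library A and library B of each group (y), with 95% Wilson intervals as bars. The dual blockade libraries sit at 21.6% and 34.2%, the APG-157 and anti-CD8 libraries between 4.06% and 7.19%.

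The 3 CD3 genes kept near-constant proportions. The ratio of Cd3g to Cd3e CPM ran from 0.948 to 2.22 over the libraries and that of Cd3d to Cd3e from 0.282 to 0.607, although Cd3e itself spanned 48.1-fold. Moving together was not particular to these neighbours. The ratio to Cd3e spanned 2.17-fold for Trac, on another chromosome, 2.15-fold for Cd3d and 2.34-fold for Cd3g. The promoters of the CD3 genes are shown because the genes are neighbours. Cd3g and Cd3d are transcribed away from each other from start sites 1355 bases apart, and the start of Cd3e lies 27825 bases beyond that of Cd3d. RefSeq sequences of 250 bases before and 50 after the start (build GRCm38.p6) were at hand for 7 of the 10 members, and those of the CD3 genes are printed 5′ to 3′ on the gene's own strand. Capitals mark GGAA on either strand (GGAA or TTCC), the core bound by Ets factors, a family that includes regulators of lymphocyte genes. Cd3g is the minus strand of chr9:44980382-44980681, Cd3d the plus strand of chr9:44981536-44981835, and Cd3e the minus strand of chr9:45009562-45009861.
Cd3g: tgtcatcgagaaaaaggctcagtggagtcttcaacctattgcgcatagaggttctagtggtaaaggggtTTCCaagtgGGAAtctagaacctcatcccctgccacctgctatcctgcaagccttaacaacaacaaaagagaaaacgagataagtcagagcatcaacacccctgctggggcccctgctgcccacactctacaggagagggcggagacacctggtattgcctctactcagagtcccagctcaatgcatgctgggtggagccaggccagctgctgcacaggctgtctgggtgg
Cd3d: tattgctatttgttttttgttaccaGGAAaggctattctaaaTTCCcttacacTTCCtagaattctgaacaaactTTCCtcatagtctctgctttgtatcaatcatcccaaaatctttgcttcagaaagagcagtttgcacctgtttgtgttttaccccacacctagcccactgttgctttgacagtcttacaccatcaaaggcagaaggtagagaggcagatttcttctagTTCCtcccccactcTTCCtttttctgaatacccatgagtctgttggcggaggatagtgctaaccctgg
Cd3e: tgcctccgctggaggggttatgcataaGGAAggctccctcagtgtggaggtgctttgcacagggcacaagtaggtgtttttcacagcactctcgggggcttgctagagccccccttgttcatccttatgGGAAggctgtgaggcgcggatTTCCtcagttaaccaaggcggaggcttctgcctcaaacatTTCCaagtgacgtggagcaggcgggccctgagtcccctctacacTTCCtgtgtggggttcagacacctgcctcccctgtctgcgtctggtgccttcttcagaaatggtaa
The core occurred 6 times in the Cd3d window, 5 times in that of Cd3e and 2 times in that of Cd3g. Of 32851 mouse promoters of the same length, 96.0% held it, with a median of 3 matches, so its presence does not set these windows apart. The E-box CANNTG, bound by basic helix-loop-helix factors, occurred 4 times in the Cd3g window, 2 times in that of Cd3e and once in that of Cd3d, and in 72.3% of all promoters. TATAAA on either strand was in none of the 3 windows and in 13.6% of all promoters. Each motif was counted on its own, so matches of different motifs can overlap.

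The zeta chain and the kinases and adaptor had flatter levels than Cd3e at the low end. Cd247 to Cd3e, as a ratio of CPM, was 0.272 and 0.265 in control, 0.276 and 0.266 with dual blockade, 0.667 and 0.532 with APG-157, 0.482 and 0.592 with anti-CD8, and 0.776 in anti-CTLA-4 library B. Lck to Cd3e was 1.10 and 1.08 in control, 0.817 and 0.842 with dual blockade, 3.23 and 2.44 with APG-157, 3.16 and 2.55 with anti-CD8, and 2.88 in anti-CTLA-4 library B. In the CD8-depleted pair, where Cd3e was at 3.87 and 3.64 CPM, Cd247 to Cd3e was 0.461 and 0.936, the latter the highest of all libraries, and Lck to Cd3e was 1.75 and 2.14. Both ratios were thus above control in these libraries, but not strictly in the order of Cd3e. Zap70 to Cd3e was 0.331 and 0.349 in control, 0.808 and 0.887 with APG-157, and 0.607 and 0.728 with anti-CD8, and Lat to Cd3e was 0.252 and 0.194, 0.397 and 0.726, and 0.393 and 0.553 in the same groups. With APG-157 and anti-CD8 the ratio of the natural killer gene Ncr1 to Cd3e was also above control, 4.05 and 2.71 with APG-157, 2.38 and 2.63 with anti-CD8, and 3.48 in anti-CTLA-4 library B, against 0.315 and 0.455 in control. The ratio of Trdc, the delta chain constant gene of gamma-delta T cells, to Trac was 0.962 and 0.561 with APG-157, 0.409 and 0.636 with anti-CD8, 0.889 in anti-CTLA-4 library B, and 0.111 and 0.163 in control. Both ratios also rise when Cd3e or Trac falls, and the summed lists were not raised. With the lower library first, the gamma-delta list summed to 2.81 and 7.24 CPM in control. It summed to 2.53 and 3.57 with APG-157, and 2.20 and 2.26 with anti-CD8. The natural killer list summed to 18.7 and 30.2 CPM in control, 11.9 and 24.9 with APG-157, and 11.1 and 15.4 with anti-CD8. The part of natural killer and gamma-delta T cells in these levels was not tested.

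The treated groups were then compared with control, gene by gene, in 1 edgeR quasi-likelihood fit of all 20 libraries with Benjamini-Hochberg adjustment over 19567 genes. The 9 comparisons share the same control libraries. No member passed an adjusted p of 0.05 in any of them, and the median over all genes lay within 0.05 of 0 on the log2 scale in each.

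With dual blockade all 10 members were higher than in control, and their median on the log2 scale was 2.64. Cd3g was highest at 2.90 ± 1.21 (SE), followed by Cd3d at 2.73 ± 1.19, Lat at 2.71 ± 0.99, Cd247 at 2.66 ± 0.95, Cd3e at 2.64 ± 1.21 and Trac at 2.63 ± 1.08. Zap70 was at 2.53 ± 0.96, Lck at 2.26 ± 0.89, Trbc1 at 2.16 ± 0.67 and Trbc2 at 0.57 ± 0.38. All 10 members were higher in both libraries than in both controls, as were 19% of all genes. At an unadjusted p of 0.05, 9 of the 10 passed, all but Trbc2, against 5.98% of all genes. After adjustment 0 of 10 passed in edgeR, where 0% of all genes did, and 0 of 10 in DESeq2, where 0.539% did, and the smallest adjusted p of a member in edgeR was 0.723 (Trbc1, Cd247 and Lat). With only the 4 libraries of these groups in the edgeR fit, 8 members passed (adjusted p from 0.00626 for Trac to 0.0257 for Lck), all but Trbc1 and Trbc2, against 1.81% of all genes. The calls thus differed between a fit of these groups alone and a fit of all 10. The libraries of these groups were close (biological coefficient of variation 23.5% in control and 20.8% in the treated pair). The smaller fit also had its own scaling and filter, with 17213 genes tested, and the part of each change was not tested.

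With APG-157 alone all 10 members were lower than in control, and their median on the log2 scale was -1.34. Cd3e was lowest at -2.34 ± 1.23 (SE), then Cd3d at -2.19 ± 1.19, Trac at -2.07 ± 1.08, Cd3g at -1.71 ± 1.18 and Trbc1 at -1.52 ± 0.67. Cd247, Zap70, Lat and Lck lay between -1.16 and -0.93, and Trbc2 at -0.27 ± 0.38. Both libraries lay below both controls for 9 of the 10 members, all but Trbc2, as they did for 13.2% of all genes. At an unadjusted p of 0.05 in edgeR only Trbc1 passed, 1 of 10 against 0.751% of all genes. After adjustment 0 of 10 passed in edgeR (0% of all genes) and 0 of 10 in DESeq2 (0.0358%). Without APG-157 library B, which stood apart in Ccl21a or Cxcl13 of the lymph node list, the median of the members was -1.28.

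Anti-CD8 alone gave values close in size, again with no adjusted call. The depletion was visible in Cd8a, the CD8 alpha coreceptor, with 8.00 and 9.00 counts against 315 and 343 in control, while Cd4, the other coreceptor, had 69.0 and 116 counts against 159 and 135. The median log2 fold change of the members was -1.60, with Cd3e at -2.37 ± 1.22 (SE), Cd3d at -2.17 ± 1.19, Cd3g at -2.11 ± 1.20, Trbc1 at -1.84 ± 0.67 and Trac at -1.82 ± 1.06. Zap70, Cd247, Lat and Lck lay between -1.38 and -1.01, and Trbc2 at -0.52 ± 0.38. Both libraries lay below both controls for 9 of the 10 members, as for 18.5% of all genes; Trbc2 was the exception. Trbc1 alone passed an unadjusted p of 0.05 in edgeR, 1 of 10 against 1.2% of all genes. After adjustment 0 of 10 passed in edgeR (0% of all genes) and 0 of 10 in DESeq2 (0.0307%).

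The single antibodies gave smaller or less even differences. Anti-PD-1 alone had a median of 0.49 over the members, with 8 of 10 above 0, led by Cd3g at 0.76 ± 1.14 (SE); 0 of 10 passed an unadjusted p of 0.05 against 0.613% of all genes, 0 passed after adjustment in edgeR (0%), and 0 in DESeq2 (0.0102%). Anti-CTLA-4 alone had a median of 1.33, with all 10 above 0, from 0.56 ± 0.65 for Trbc1 to 1.72 ± 1.16 for Cd3g; 0 of 10 passed unadjusted against 6.25% of all genes, 0 after adjustment in edgeR (0%), and 0 in DESeq2 (0.127%). That median rested on library A: without it the median was -1.40. The values of the anti-CTLA-4 group are therefore those of libraries that lie on opposite sides of control.

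Of the combinations with APG-157, the PD-1 combination had a median of 1.05 with 9 of 10 members above 0; 0 of 10 passed unadjusted against 2.44% of all genes, 0 after adjustment in edgeR (0%), and 0 in DESeq2 (0.0204%). Without its library A the median was 0.11. The triple combination had a median of 1.46, with Trbc1 and Trbc2 at -0.06 ± 0.65 (SE) and -0.05 ± 0.38 and the other 8 between 1.24 and 1.89. In it 0 of 10 passed unadjusted against 4.47% of all genes, 0 after adjustment in edgeR (0%), and 0 in DESeq2 (0.13%). Without its library A the median was -0.47, below control. The CTLA-4 combination, whose libraries agreed closely, had a median of 0.35, from -0.27 ± 0.65 for Trbc1 to 0.49 ± 1.14 for Cd3g. In it 0 of 10 passed unadjusted against 10.7% of all genes, 0 after adjustment in edgeR (0.0204%), and 0 in DESeq2 (2.31%).

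**Figure D4:**
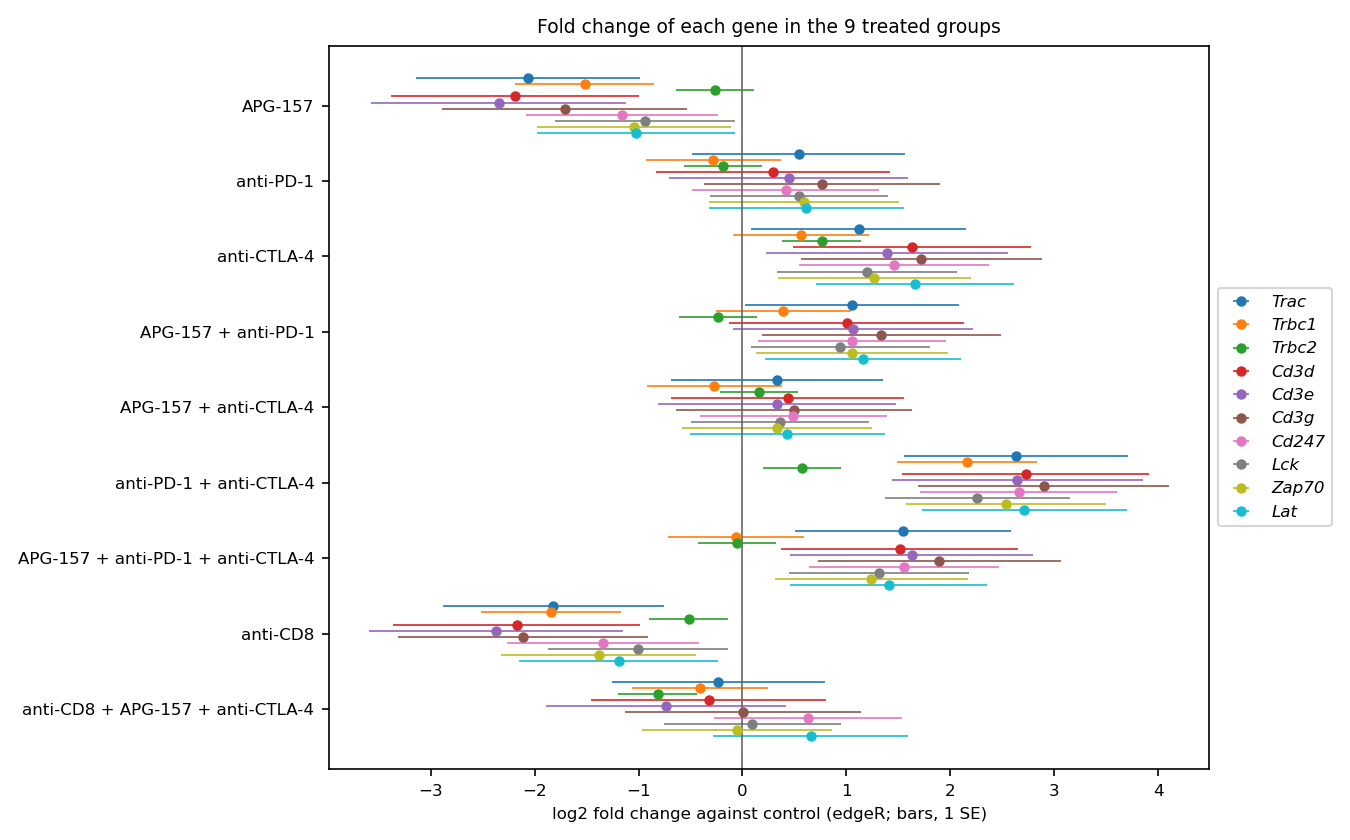
log2 fold change against control (x) of the 10 genes, coloured by gene, in the 9 treated groups (y), with 1 SE as bars. The genes lie together between 2.16 and 2.90 with dual blockade and between -2.34 and -0.93 with APG-157, except Trbc2 at 0.57 and -0.27.

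Added to anti-CTLA-4, APG-157 gave members that were all lower, with a median of -0.95 and a range from -1.23 ± 0.94 (SE) for Lat to -0.60 ± 0.38 for Trbc2. In this comparison 0 of 10 passed unadjusted against 23.4% of all genes, 0 after adjustment in edgeR (0.00511%), and 0 in DESeq2 (17.8%). The direction turned without anti-CTLA-4 library A, when the median was 1.79, since the levels of the combination lay between those of anti-CTLA-4 libraries A and B for 9 members; Trbc2 was below both.

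In the CD8-depleted combination the members' median lay nearer to control than with anti-CD8 alone, although Trbc2 lay further from it, with a mean of 18.7 CPM against 23.0 with anti-CD8 and 32.9 in control. In the CD8-depleted combination, Cd8a had 18.0 counts in each library, against 811 and 652 in the CTLA-4 combination, and Cd4 had 382 and 295 counts against 166 and 134. Against control, the members had a median log2 fold change of -0.14, from -0.81 ± 0.38 (SE) for Trbc2 to 0.66 ± 0.94 for Lat. There 0 of 10 passed unadjusted against 19.2% of all genes, 0 after adjustment in edgeR (0.0102%), and 0 in DESeq2 (7.12%). Without library A of the depleted pair, which leaves only library B, the one that stood apart in Adipoq, Trbc2 was at -1.46. Against anti-CD8 alone the median was 1.61, with Cd3g at 2.12 ± 1.20, Cd247 at 1.97 ± 0.94, Lat and Cd3d at 1.85 and Trbc2 at -0.30 ± 0.38. There 0 of 10 passed unadjusted against 25.8% of all genes, 0 after adjustment in edgeR (0.0102%), and 0 in DESeq2 (10.2%).

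The CTLA-4 combination was 0.43 above its CD8-depleted counterpart in the median of the members on the log2 scale, from -0.22 ± 0.93 (SE) for Lat to 1.07 ± 1.16 for Cd3e. Here 18.1% of all genes passed after adjustment in edgeR but 0 of 10 members did; Trbc2 alone, at 0.98 ± 0.38, passed unadjusted, 1 of 10 against 38% of all genes. DESeq2 called Trbc2 (adjusted p = 0.044), 1 of 10 against 30.1% of all genes, so the shares of members called were below those of all genes. The adipocyte list summed to 78.5 and 4006 CPM in the depleted pair and to 17.1 and 17.5 CPM in the other. The squamous epithelium list summed to 20.5 and 442 CPM against 7.62 and 7.64, and the lymph node list to 2.77 and 65.5 against 1.30 and 1.71. Within the epithelial list Epcam and Cdh1 reached 217 and 222 CPM, whereas no other gene exceeded 6.98 CPM in any library. Its highest sum thus rests on general epithelial genes and not on squamous keratins. The part of these lists in the result was not tested. Without the depleted library B the median of the members was 0.59. Without the depleted library A, which leaves only library B, Trbc2 was at 1.62.

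With every agent present in 8 of the 16 libraries without anti-CD8 and absent in 8, the main effect of each agent on the members was estimated with smaller errors. Anti-CTLA-4 gave 10 of 10 members higher, with a median of 1.41: Cd3d 1.80 ± 0.58 (SE), Cd3e 1.71 ± 0.59, Cd3g 1.65 ± 0.58, Trac 1.53 ± 0.52, Cd247 1.46 ± 0.46, Lat 1.36 ± 0.47, Zap70 1.19 ± 0.46, Lck 1.15 ± 0.43, Trbc1 0.95 ± 0.33 and Trbc2 0.53 ± 0.19. All 10 passed an unadjusted p of 0.05 against 10.1% of all genes. After adjustment 0 of 10 passed in edgeR, where 0.281% of all genes did (smallest edgeR adjusted p of a member 0.237, for Cd247). In DESeq2 3 of 10 passed, Cd3d (adjusted p = 0.0215), Cd247 (0.0289) and Trac (0.031), against 3.55% of all genes. Without anti-CTLA-4 library A the median was 0.65.

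Anti-PD-1 gave 9 of 10 members higher, with a median of 1.22: Trac, Cd3e and Cd3g at 1.60 each (SE 0.52, 0.59 and 0.58), Cd3d 1.41 ± 0.57, Cd247 1.22 ± 0.46, Zap70 1.22 ± 0.46, Lat 1.21 ± 0.47, Lck 1.11 ± 0.43 and Trbc1 0.86 ± 0.33. Trbc2 was at -0.14 ± 0.19. The same 9 passed an unadjusted p of 0.05 against 8.49% of all genes, while 0 of 10 passed after adjustment in edgeR (0%) and 0 of 10 in DESeq2 (0.902%). Without anti-CTLA-4 library A, a library not given anti-PD-1, the median was 1.93. With Trbc1 and Trbc2 summed to 1 gene before the fit, their sum was 0.00084 higher with anti-PD-1 on the log2 scale, where Trac alone was at 1.60.

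APG-157 gave 10 of 10 members lower, with a median of -0.80, from -0.98 ± 0.33 (SE) for Trbc1 to -0.38 ± 0.19 for Trbc2. Trbc1 alone passed unadjusted, 1 of 10 against 7.19% of all genes, and 0 of 10 passed after adjustment in edgeR (0%) or in DESeq2 (0.0409%). Without anti-CTLA-4 library A the median was -0.01, with Cd3e at 0.06, Cd3g at 0.10 and Lck at 0.03, so these turned direction.

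**Figure D5:**
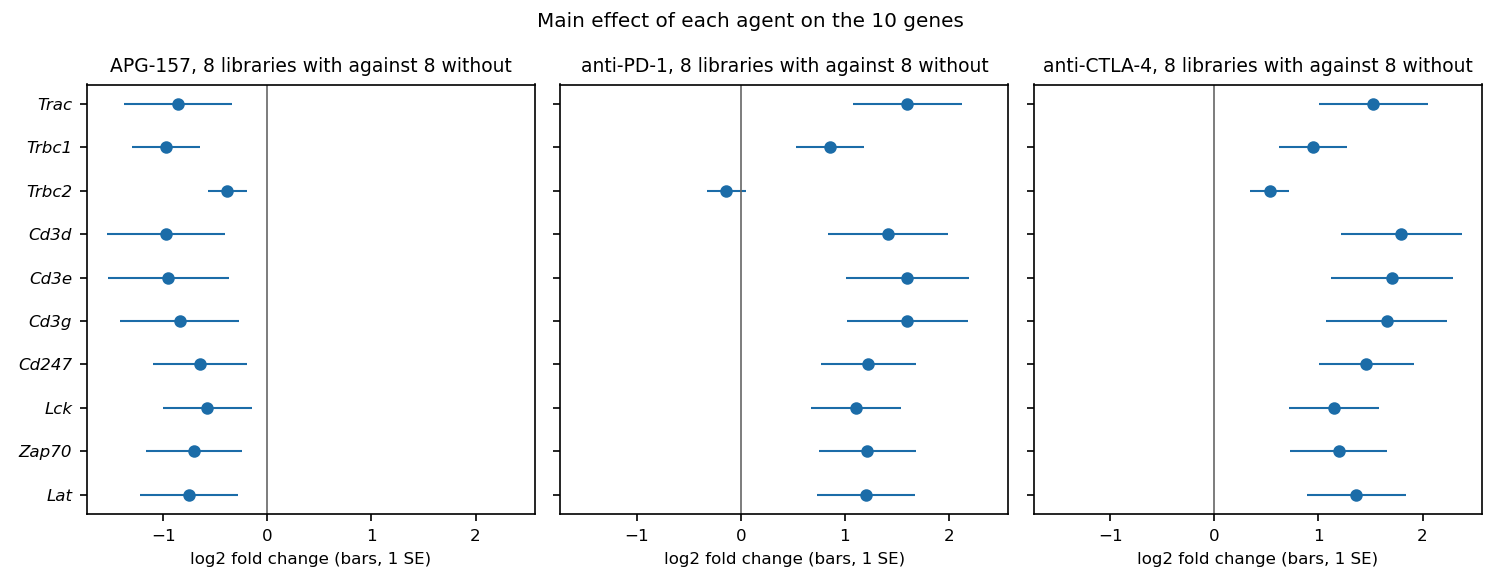
Main effect of each of the 3 agents (panels) on the 10 genes (y) as log2 fold change (x), 8 libraries against 8, with 1 SE as bars. All 10 points lie below 0 for APG-157 and above 0 for anti-CTLA-4, and 9 lie above 0 for anti-PD-1, with Trbc2 at -0.14.

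The other 46 genes of T cell receptor signalling on the list followed the members to very different degrees. Their r with the mean of the members had a median of 0.776, against a median of -0.003 over all 19477 genes, and was over 0.9 for 14 of the 46, against 0.919% of all genes. Genes used mostly by T cells led. Cd2, an adhesion receptor (r = 0.979), Sh2d2a, an Lck-binding adaptor (0.967), Ubash3a, a phosphatase that damps receptor signals (0.966), and Themis (0.959) were among them. Genes that many cells use stood at the other end: Plcg1, phospholipase C gamma 1 (-0.397), and Nck1, an actin-linked adaptor (-0.637), of which Nck1 spanned only 1.29-fold over the libraries.

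In edgeR 0 of the 46 passed the adjusted threshold against control in any group, where at most 0.0204% of all genes did. In DESeq2 1 of the 46 did, Malt1 in the CTLA-4 combination, where 2.31% of all genes did. With dual blockade, 22 of the 46 passed unadjusted against 5.98% of all genes, all higher, with Cblb at 0.74 ± 0.20 (SE) and Skap1 at 2.36 ± 0.72 among those with the lowest p, and the list's median was 0.73. In the main effects 21 were higher at an unadjusted p with anti-CTLA-4 (10.1% of all genes passed), median 0.31, and 18 with anti-PD-1 (8.49% of all genes), median 0.33; after adjustment edgeR called 0 in each, and DESeq2 called 6 under anti-CTLA-4 (among them Icos, Malt1, Prkcq, Themis and Ubash3b, against 3.55% of all genes) and 0 with anti-PD-1. For APG-157 1 of the 46 was lower at an unadjusted p, against 7.19% of all genes that passed. It was Trat1, a transmembrane adaptor that binds the receptor complex, at -0.92 ± 0.30, with a list median of -0.07. Between the CTLA-4 combination and its CD8-depleted counterpart, 9 of the 46 passed the adjusted edgeR threshold and all were higher: Nfatc3 at 0.81 ± 0.20, Malt1 at 0.61 ± 0.16, Dgkz at 0.77 ± 0.20, Fyn at 0.59 ± 0.16, Lcp2 at 0.97 ± 0.29, Cbl at 0.85 ± 0.27, Pag1 at 0.66 ± 0.21, Ptprc at 1.13 ± 0.36 and Nfatc2 at 0.91 ± 0.30. Cells other than T cells express these genes too, and 18.1% of all genes passed in that comparison. DESeq2 called 10 of the 46 higher there and 1 lower, Nck1, against 30.1% of all genes.

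Over the whole transcriptome, the genes most like the mean of the members were Cd27, a costimulatory receptor (r = 0.988), Gimap7 (0.986) and Gimap4 (0.985), small GTPases of lymphocytes, Cd2 (0.979), and the checkpoint receptor Tigit (0.979). They were followed by Gm19585 (0.978), the class Ib gene H2-T23 (0.977), the immunoproteasome subunit Psmb9 (0.976), Pdcd1, which encodes PD-1 (0.975), and Gimap3 (0.974). Most of these are genes of lymphocytes, whereas H2-T23 and Psmb9 are expressed by many cells and ran from 51.8 to 398 CPM and from 40.4 to 248 CPM. The correlations are over 20 libraries that share groups and processing, and are given as a description.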

How the data were processed

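Tumor RNA was made into libraries with the KAPA mRNA HyperPrep method. Per the labels and the study's methods, the authors checked reads with FastQC, trimmed them with Trimmomatic 0.39, and estimated transcript abundance with Salmon (1.5.0 in the labels, a later release in the methods) on GENCODE vM27 (GRCm39). The deposited gene table holds estimated counts (expected counts) per library, not normalised. A second table, deposited as log2 values, was of the same counts after library scaling (largest deviation 0.018 over 12330 genes) and was not used further.

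Expected counts were rounded and tested with edgeR 4.0.16 (R 4.3.3): TMM factors of 0.956 to 1.04, filterByExpr at a minimum count of 10, a robust quasi-likelihood fit of the 10 groups with 10 residual degrees of freedom, and Benjamini-Hochberg adjustment over 19567 genes, called at 0.05 with no fold minimum; SE is the size of the log2 fold change divided by the square root of the F statistic. DESeq2 1.42.0 without fold shrinkage was the alternative. The fits were tested on simulated counts first. No tumor or mouse identity links libraries A and B. The members and gene lists were chosen with earlier results of these data known. All 10 members are named, and from other lists the genes called in a comparison or the lowest 3 by p, except a few that are not reported here. Symbols came from a table that matched 51484 of 54309 identifiers. Alternatives were other scaling (RLE factors), low-count filters, fold minimums of 1 and 2 on the log2 scale, fewer groups in the fit, the letter as a block, the CTLA-4 combination summed to 1 sample, each library left out (the adipocyte-rich one from every fit), and Trbc1 with Trbc2 as 1 gene. Depth gives Poisson errors that matter only for members near 22 counts. Likeness used Pearson's r of log2(CPM + 0.1).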

Additional observations from a re-analysis of the deposited data

How the results depend on the processing

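Of 249 recounts of the members called, 243 gave the main count. Those with a fold minimum could not differ, since the main count was 0 in every comparison. Of 219 recomputed medians 209 moved by less than 1 SD between replicates. On the log2 scale that SD was 1.72 for anti-CTLA-4 against control and 1.12 for each main effect. Large shifts there still count as small. The APG-157 main effect, at -0.80 in the main fit and -0.01 without anti-CTLA-4 library A, counts among the 209. With only the compared groups in the fit, 8 members passed for dual blockade against control (1.81% of all genes) and 1 (Trbc2) for the CTLA-4 combination against anti-CTLA-4, instead of 0. For that Trbc2 call the share of all genes that passed is not given here. DESeq2 called 3 members for the anti-CTLA-4 main effect and 1 for the CTLA-4 combination against its CD8-depleted counterpart, and a filter on a mean of 1 CPM gave the latter a median of 0.32.

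Leaving out each library in turn kept the count at 0 except 0 to 1 for both comparisons of the CD8-depleted combination, with control and with the CTLA-4 combination (Trbc2, without its library A). The median of the members then ran from -1.63 to -1.09 for APG-157 against control, 0.06 to 0.85 for anti-PD-1, -1.40 to 2.24 for anti-CTLA-4, 0.11 to 1.62 for the PD-1 combination, 0.063 to 0.75 for the CTLA-4 combination, 2.33 to 3.00 for dual blockade, -0.47 to 2.29 for the triple combination, -1.85 to -1.29 for anti-CD8, and -0.40 to 0.16 for the CD8-depleted combination. It ran from -1.83 to 1.79 for the CTLA-4 combination against anti-CTLA-4, 0.22 to 0.59 against its CD8-depleted counterpart, 1.41 to 1.76 for that counterpart against anti-CD8, -1.18 to -0.01 for the APG-157 main effect, 0.80 to 1.93 for anti-PD-1, and 0.65 to 1.63 for anti-CTLA-4. Single genes turned sign without 1 library: Trbc2 with APG-157 against control ran from -0.52 to 0.10, and in the APG-157 main effect Cd3e from -1.56 to 0.057, Cd3g from -1.45 to 0.10 and Lck from -0.97 to 0.029. The anti-PD-1 difference in the Trbc2 to Trac ratio ran from -2.38 to -1.28 (exact permutation p from 0.00154 to 0.0417). With Cd3e, Cd3g or Cd3d as the denominator, chosen after seeing the data, it was -1.88, -1.84 and -1.65 (exact permutation p = 0.0108, 0.00772 and 0.037). These genes had r of 0.982 to 0.988 with Trac, so they could hardly give another result and add no separate support.

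Whether the letters A and B pair the libraries is not known. Over 45 pairs of groups the correlation of the A minus B differences ran from -0.38 to 0.71. It was over 0.1 in 13 of them, which neither shows nor excludes a shared block. In the library labels all A libraries are numbered before all B libraries, and what that order stands for is not given. With the letter as a replicate block 0 members passed in each comparison, and the median was 2.63 for dual blockade and -1.38 for APG-157 against control. The cause of the changes named here was not tested. At these depths the spread between libraries, not counting error, limits the comparisons.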

Other observations

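Gamma-delta chain genes gave values outside the comparisons above. Tcrg-C2, a gamma constant gene, ran from 0 to 848 counts and had r = 0.930 with the mean of the 10 members over the 20 libraries, Tcrg-C4 had r = 0.908 and Tcrg-C1 r = 0.491. Trdc, the delta constant gene, had r = 0.655 and ran from 30.0 to 146 counts. The gamma constant genes share sequence, so their counts are uncertain in the same way as those of Trbc1 and Trbc2. Il17a, a product of some gamma-delta T cells, was at 0 in all 20 libraries. Ptcra, the pre-T cell receptor alpha gene of developing thymocytes, ran from 0.61 to 2.24 CPM, had r = -0.034 with the members, and was accompanied by Rag1 at 0 in 11 libraries and Rag2 at 0 in 12.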
